A study of Mus musculus with 14 samples.

Results

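Pluripotent mouse cells hold their state with a small set of regulators. The genes described here are 8 of them other than Nanog, taken by name from a table of gene counts: Pou5f1, Sox2, Sall4, Utf1, Dppa2, Dppa4, Lin28a and Trim28. They are 8 of the 25131 rows of the table and 8 of the 10241 rows with enough counts to be tested. The cells were embryonic stem cells (ESCs) with a C57BL/6 strain background, grown on gelatin with serum, leukemia inhibitory factor and the 2i inhibitors PD0325901 and CHIR99021. RNA was sequenced from cells with the genotype RCOR2 KO (2 libraries, called KO) and from WT cells (2 libraries). Not stated in the labels are the deleted stretch of Rcor2, whether the KO is 1 clone, and whether replicates came from different dishes, so a p-value here reflects library-to-library spread that may be technical. RCOR2 binding came from a single peak list, made by chromatin immunoprecipitation (ChIP) with anti-HA resin from ESCs that express HA-tagged RCOR2, so it shows where an added, tagged protein was recovered.

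OCT4 (the protein of Pou5f1) and SOX2 bind DNA side by side at enhancers of pluripotent cells, and both are needed to keep ESCs undifferentiated. SALL4 and UTF1 act with them in the nucleus, DPPA2 and DPPA4 form a chromatin-bound pair, TRIM28 silences retroviral elements with KRAB zinc finger proteins, and LIN28A is an RNA-binding protein that blocks maturation of let-7 microRNAs. RCOR2 is a corepressor of the CoREST family, whose members join the histone demethylase LSD1 with histone deacetylases. The comparison asks what level each of these regulators had in ESCs labelled RCOR2 KO, and where RCOR2 was found around their genes.

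Lin28a was the one regulator of the 8 that passed the test, and it rose in KO cells. This call rested on low counts and was lost in 5 of 12 alternatives. The other genes had estimates on both sides of 0, none past the threshold. Every one of the 8 genes had RCOR2 peaks within 20 kb, as did most tested genes, but the peak beside Lin28a was much stronger than those beside the others. Whether that peak bears on the level of Lin28a was not tested.

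RCOR2 peaks overlapped the promoter windows of Pou5f1, Sox2, Utf1 and Lin28a. These windows are the 250 bases before the start site in RefSeq (build GRCm38.p6), and they are printed because deposited peaks cover all or part of them. The strongest peak near Lin28a lies outside its window, and the summit of the peak over the Pou5f1 window lies 2005 bp before the first start. RefSeq's promoter table held 6 windows for 5 of the 8 genes, with a pair of start sites for Pou5f1 and Trim28 as the fifth gene. Peaks covered 250 of the 250 bases at the first start of Pou5f1 (chr17:35505782-35506031, + strand), 250 at Utf1 (chr7:139943606-139943855, + strand), 193 at Lin28a (chr4:134018817-134019066, - strand) and 69 at Sox2 (chr3:34649745-34649994, + strand). The window of the second Pou5f1 start (chr17:35508557-35508806, + strand) and that of Trim28 (chr7:13023902-13024151, + strand) each had 0 bases in a peak. Capitals mark the GC box GGGCGG, a site read by SP family factors, and the SOX word CATTGT, on either strand. They are marked whether or not a peak covers them.
Pou5f1: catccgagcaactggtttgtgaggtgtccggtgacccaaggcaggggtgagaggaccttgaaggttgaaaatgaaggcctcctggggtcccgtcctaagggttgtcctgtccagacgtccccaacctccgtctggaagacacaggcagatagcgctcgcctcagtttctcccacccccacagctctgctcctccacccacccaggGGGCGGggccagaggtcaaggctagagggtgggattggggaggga
Sox2: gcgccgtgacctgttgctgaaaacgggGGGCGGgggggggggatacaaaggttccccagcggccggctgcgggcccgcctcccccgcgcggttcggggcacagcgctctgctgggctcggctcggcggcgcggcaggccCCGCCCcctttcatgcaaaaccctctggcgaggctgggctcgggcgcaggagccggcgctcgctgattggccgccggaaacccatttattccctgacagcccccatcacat
Utf1: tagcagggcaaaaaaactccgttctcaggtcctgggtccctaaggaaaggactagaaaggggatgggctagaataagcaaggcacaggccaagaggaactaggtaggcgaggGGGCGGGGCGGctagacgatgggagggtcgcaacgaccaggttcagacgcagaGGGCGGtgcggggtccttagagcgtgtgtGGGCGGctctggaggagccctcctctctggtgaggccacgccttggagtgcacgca
Lin28a: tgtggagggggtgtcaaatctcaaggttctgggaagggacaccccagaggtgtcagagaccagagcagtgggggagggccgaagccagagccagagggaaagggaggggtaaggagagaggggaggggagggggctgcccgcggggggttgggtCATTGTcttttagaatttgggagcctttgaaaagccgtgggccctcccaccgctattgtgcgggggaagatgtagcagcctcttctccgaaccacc
The GC box occurred once in the printed Pou5f1 window, 4 times in that of Utf1 and 2 times in that of Sox2, with 0 matches in that of Lin28a. In the Utf1 window a pair of the boxes share a base and are printed as 1 run. Of all 32851 promoter windows in the table, 32.7% held at least 1 GC box. The SOX word lay in the Lin28a window, 96 bases before the start, and in the window of the second Pou5f1 start, at position -158; 10.7% of all windows held it. The octamer ATGCAAAT, read by OCT4, was in none of the members' windows and in 1.6% of all windows, and the REST half-site CAGCACC was likewise in none and in 5.73%. The Sox2 window was the richest in CpG, with 27 against a median of 6 over all windows, while that of Utf1 had 14, that of Pou5f1 8 and that of Lin28a 7. These letters describe the windows and show neither binding nor its absence.

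The RNA libraries held 2951498 and 1974865 counts in KO and 2368804 and 1286393 in WT. Rcor2 itself had 54.19 and 53.89 CPM (counts per 1000000 counts, after scaling) in KO against 81.36 and 81.52 CPM in WT, with a log2 fold change of -0.59 ± 0.23 (SE; adjusted p = 0.0636, edgeR), which is no check of the genotype. Genes of 4 autosomes were shifted together in KO, with a median log2 fold change of 0.92 on chromosome 6, 0.52 on chromosome 8, 0.48 on chromosome 3 and -0.485 on chromosome 11, against -0.158 to -0.002 on the other autosomes and X. Both tested genes of the Y chromosome were lower, with a median of -6.02. Of the 8 regulators, Sox2 alone lies on one of these chromosomes, chromosome 3. The 6 ESC markers outside the set (Nanog, Zfp42, Esrrb, Tdgf1, Dppa5a and Klf2) were all counted in every library, as the labelled cell type should have them, and summed to 3163 and 3187 CPM in KO and 3238 and 2897 CPM in WT. Markers of trophoblast summed to 191.2 and 195.1 CPM in KO against 127.7 and 174.5 CPM in WT, a sum that holds 3 genes called higher (Gata3, Krt8 and Krt18) and 1 called lower (Tfap2c). Krt8 had 35.9 and 41.33 CPM in KO against 9.274 and 5.333 CPM in WT, and Tfap2c 46.94 and 30.87 CPM in KO against 80.51 and 136.4 CPM in WT. Those of primitive endoderm summed to 46.25 and 27.21 CPM in KO against 8.431 and 19.04 CPM in WT, and those of mesoderm and definitive endoderm to 29.34 and 34.53 CPM in KO against 18.55 and 18.29 CPM in WT. Within these, Dab2 (39 and 24.07 CPM in KO against 6.745 and 13.71 CPM in WT) and Eomes (17.26 and 22.5 CPM in KO against 1.265 and 3.048 CPM in WT) were called higher. Dab2 made up most of the primitive endoderm sum in each library and was the only marker of that list with enough counts to be tested. The others had at most 12 counts in a library. By mean CPM, Gata6 and Gata4 were higher in KO, Sox17 and Sox7 were lower, and Pdgfra was nearly equal. Gsc, the other tested marker of mesoderm and definitive endoderm, went the other way and was not called. It had 7.938 and 6.278 CPM in KO against 16.02 and 15.24 CPM in WT. Marker calls were not recomputed under the alternatives. Neural markers summed to 19.33 and 46.56 CPM in KO and 62.8 and 46.48 CPM in WT, and fibroblast markers to 19.33 and 11.51 CPM in KO and 18.13 and 26.67 CPM in WT. Of the neural markers, Nes was called lower, at 8.974 and 28.25 CPM in KO against 41.73 and 31.24 CPM in WT. The other tested neural marker, Tubb3, was not called and its groups overlapped, at 9.664 and 16.74 CPM in KO against 17.7 and 9.905 CPM in WT. In this bulk RNA, fewer cells of a type and less RNA per cell cannot be told apart. Brachyury (T), Foxa2 and Zic1 had 0 counts in every library, and Cdx2 had 8 and 6 counts in KO and 0 in both WT libraries. What part cells of these types had in the changes below was not tested.

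Across all tested genes, 1062 were called higher and 952 lower in KO at an adjusted p under 0.05 (edgeR's quasi-likelihood test, Benjamini-Hochberg), which is 19.7% of the genes in either direction, 10.4% higher and 9.3% lower. Of the 8 regulators 1 was called higher and 0 lower, a share close to that background. Without adjustment, 2 were higher (Pou5f1 and Lin28a) and 2 lower (Sall4 and Trim28) at p under 0.05, against 15.9% higher and 15.0% lower among all tested genes. DESeq2 called 0 of the 8 (8.41% of all genes it tested) and limma-voom 2 (20.7%). The CPM of the groups did not overlap for 6 of the 8 genes, against 56.9% of all tested genes. Their median log2 fold change was -0.27, against -0.02 over all tested genes. By size of change, Lin28a exceeded 90.8% of tested genes, Pou5f1 67.9%, Utf1 52.7%, Sall4 50.1%, Trim28 45.2%, Dppa2 39.2%, Sox2 31.1% and Dppa4 14.8%.

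**Figure D1:**
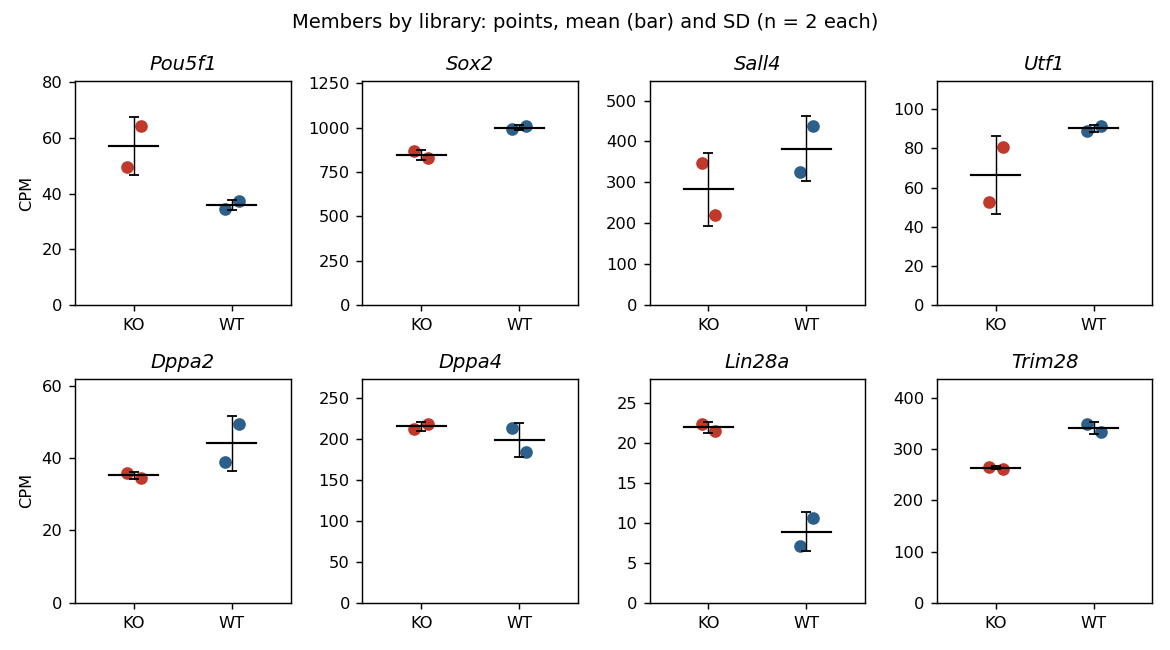
CPM of the 8 regulators in each library (points), with the mean as a bar and the SD as an error bar (n = 2 KO and n = 2 WT); each panel has its own axis from 0. The KO and WT points separate for all genes but Sall4 and Dppa4, and the widest gap in proportion is that of Lin28a, at 21.9 CPM in KO against 8.92 CPM in WT.

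RCOR2 peaks were common near genes. A peak summit lay within 20 kb of 92.8% of the tested genes that could be placed, and one with a −log10 q of at least 5 within 20 kb of 78.4%. The fold of a peak is its enrichment over the control and the −log10 q its significance, both as the authors' peak caller gave them. All 8 regulators had a peak by either rule. In all, 68 distinct peaks lay near them, 1 of which was shared by the neighbours Dppa2 and Dppa4, and 15 lay inside a gene. The median was 7.5 peaks per regulator and 3 per tested gene, although the regulators are shorter (a median of 8060.5 bp against 23471 bp). Their median −log10 q was 5.73, against 5.08 for all 53366 peaks on chromosomes. The list was called on merged libraries and gives 1 value per peak, so no peak has a replicate check.

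**Figure D2:**
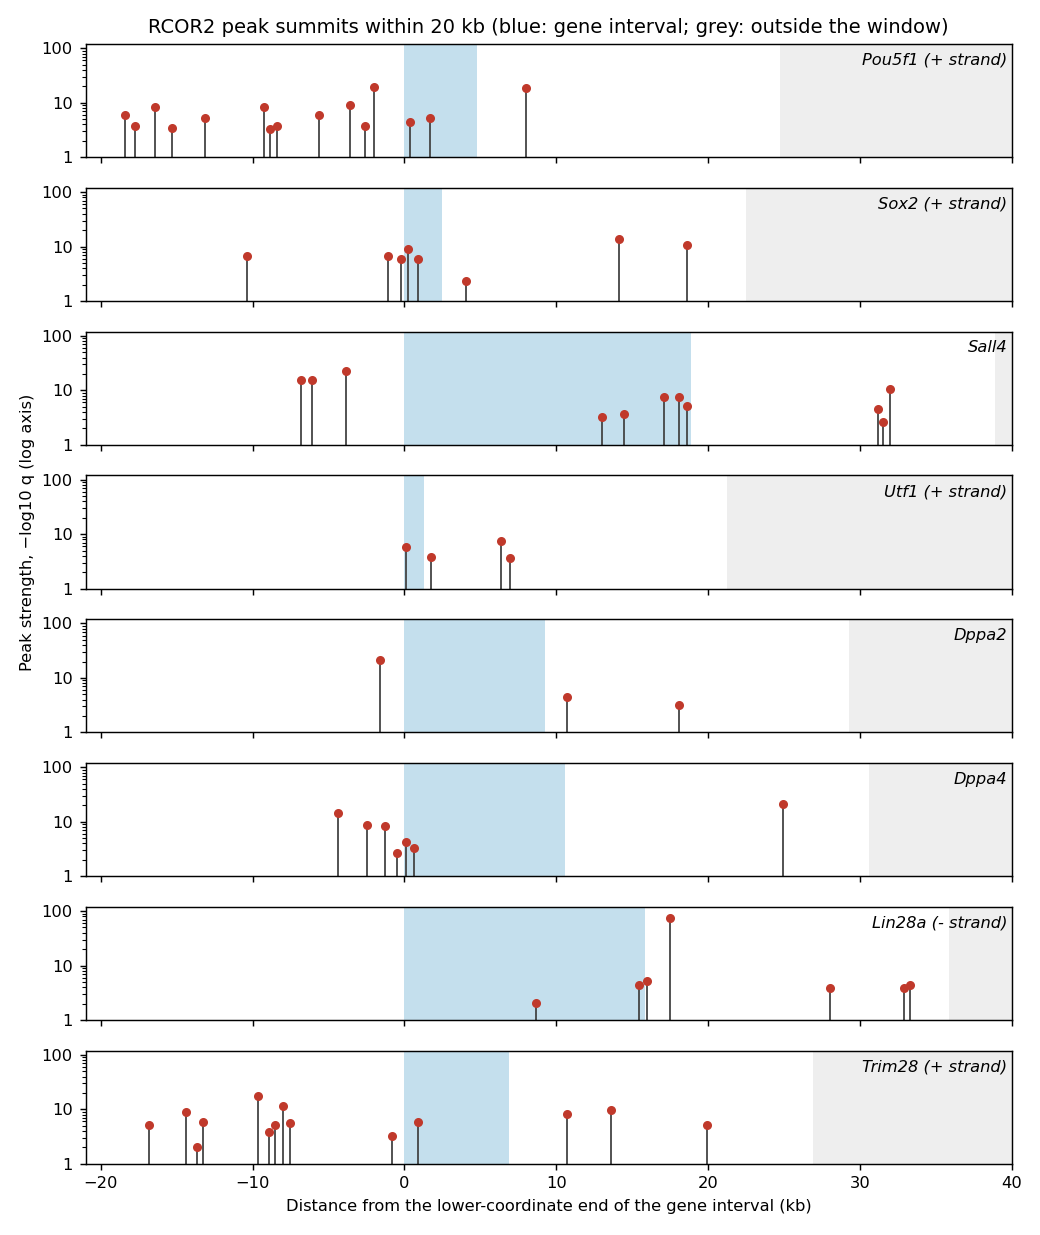
RCOR2 peak summits within 20 kb of each regulator, drawn by distance from the lower-coordinate end of the gene interval (kb) against peak strength (−log10 q, log axis). The blue band is the gene and grey lies outside the window. The peak next to Lin28a stands highest, at 74.7, while no other gene has one above 22.6.

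Lin28a, the RNA-binding protein that holds let-7 precursors back, was 2.53-fold higher in KO cells. The counts were 65 and 41 in the KO libraries against 17 and 14 in the WT libraries. That is 22.43 and 21.45 CPM in KO against 7.166 and 10.67 CPM in WT, so both KO libraries lay above both WT libraries. The means were 21.9 ± 0.696 CPM in KO and 8.92 ± 2.48 CPM in WT (SD, n = 2 each), and the log2 fold change was 1.34 (SE 0.47, 95% interval 0.395 to 2.28; edgeR, adjusted p = 0.0354). At these low counts the call was fragile. It was lost with DESeq2 (adjusted p = 0.206), with scaling by library size alone (1.29, edgeR, adjusted p = 0.0504), without KO replicate 1 (1.29), without KO replicate 2 (1.38) and without WT replicate 1 (1.05). It held in 7 of 12 alternatives. Where it held with all libraries kept, the adjusted p was 0.0269 to 0.0478 by edgeR or limma-voom.

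The strongest RCOR2 peak near any of the 8 genes lay beside Lin28a. It ran over 1239 bp on chromosome 4, from 134019982 to 134021220, with a 20.2-fold enrichment and a −log10 q of 74.7. It ranked 219 among all peaks and was stronger than 99.57% of them. Its summit was at position -2001 from the RefSeq start of Lin28a, on the upstream side, and the next protein-coding gene, Dhdds, was 19860 bp away. Weaker peaks lay over the promoter (134018477 to 134019009, 4.38-fold, −log10 q of 4.46) and 103 bp outside the gene interval (4.61-fold, −log10 q of 5.16). Of tested genes with a strongest peak at least as strong as this one, 7 of 103 were higher (6.8%) and 11 lower (10.68%), close to the shares of 10.34% and 9.32% among all placed genes.

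Pou5f1, which encodes OCT4, had a higher estimate in KO cells but missed the threshold. The row held 49.7 and 64.35 CPM in KO against 34.57 and 37.33 CPM in WT, with no overlap. The log2 fold change was 0.66 (SE 0.28, 95% interval 0.11 to 1.22; edgeR, adjusted p = 0.084), and over the alternatives it ran from 0.49 to 0.84 with 0 of 12 past the threshold. The count of this row is uncertain, since the sources used here do not give how reads shared by similar sequences were counted.

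Pou5f1 had the most RCOR2 peaks of the 8 genes, 15 within 20 kb, and 97.74% of tested genes had fewer. A peak of 2604 bp (chromosome 17, 35503559 to 35506162, 8.58-fold, −log10 q of 19.7) covered its promoter window and was wider than 99.87% of all peaks. Its summit lay 2005 bp before the first RefSeq start. A second strong peak (35513422 to 35514171, 8.36-fold, −log10 q of 18.7) lay in the neighbouring gene Tcf19, and another (35502321 to 35502812, 5.98-fold, −log10 q of 9.00) lay 3585 bp before Pou5f1. Of the 2 peaks inside the gene, the one from 35506311 to 35506472 reached 4.38-fold with a −log10 q of 4.46. The stronger, from 35507624 to 35507922, reached 4.61-fold with a −log10 q of 5.16.

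Sox2, the partner of OCT4 on DNA, did not pass the test. It had 866.3 and 827.2 CPM in KO against 991.5 and 1010 CPM in WT, with the KO libraries below both WT libraries. The log2 fold change was -0.24 (SE 0.14, 95% interval -0.52 to 0.04; edgeR, adjusted p = 0.244). Its chromosome moved the other way, and set against the chromosome 3 median of 0.48, Sox2 was at -0.72 and was called lower (edgeR, adjusted p = 0.00019); by edgeR, DESeq2 or limma-voom its adjusted p reached 0.705 under other settings. The gene lies inside the long non-coding RNA Sox2ot, which had at most 4 counts in a library.

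Around Sox2 there were 8 RCOR2 peaks. The next protein-coding gene, Dnajc19, was 568883 bp from the stronger of the 2 peaks inside Sox2. The strongest (chromosome 3, 34663907 to 34664272, 7.13-fold, −log10 q of 13.5) had its summit 14110 bp after the start, followed by one from 34668351 to 34668841 (6.44-fold, −log10 q of 10.7). Of the 2 peaks inside the gene, the stronger (34650037 to 34650560, 5.75-fold, −log10 q of 9.00) had its summit 242 bp after the start and the weaker (34650779 to 34650939, 4.84-fold, −log10 q of 5.89) 872 bp after it. The peak that reached into the promoter window (34649598 to 34649813, 4.84-fold, −log10 q of 5.89) lay 245 bp before it.

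Sall4, a zinc finger protein that binds with OCT4, had overlapping groups. Its levels were 346.2 and 219.2 CPM in KO against 326.3 and 438.1 CPM in WT, so KO replicate 1 lay between the WT libraries. The log2 fold change was -0.42 (SE 0.17, 95% interval -0.76 to -0.08; edgeR, adjusted p = 0.0695). Single libraries decided it: Sall4 was called lower without KO replicate 1 (-0.80) and without WT replicate 1 (-0.61), and was at -0.12 without KO replicate 2 and -0.20 without WT replicate 2. The interval of Sall4 overlaps that of the lncRNA Gm14261, and that of Trim28 overlaps Gm31649, so reads there could belong to either if strand was not used. Sall4 was also called by limma-voom (-0.40, adjusted p = 0.0429). By edgeR, DESeq2 or limma-voom the adjusted p ran from 0.00356 to 0.829 under the other settings.

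Among its 11 RCOR2 peaks, 5 were inside Sall4. The strongest lay 3835 bp outside the gene (chromosome 2, 168744182 to 168744747, 9.41-fold, −log10 q of 22.6), and 2127 bp from the neighbour Atp9a. The next pair (168741231 to 168741825 and 168742110 to 168742998, both 7.58-fold with a −log10 q of 15.4) lay within Atp9a. The strongest inside Sall4 (168765137 to 168766036 and 168766328 to 168766501) were both 5.295-fold with a −log10 q of 7.42.

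Utf1, a chromatin-bound protein made in undifferentiated cells, had 52.46 and 80.57 CPM in KO against 88.95 and 91.43 CPM in WT. The groups did not overlap, but the KO libraries lay further from each other than KO replicate 2 lay from WT. The log2 fold change was -0.45 (SE 0.23, 95% interval -0.91 to 0.004; edgeR, adjusted p = 0.166). It was -0.16 without KO replicate 1 and -0.76 without KO replicate 2, not called in either. Of its 4 RCOR2 peaks, the strongest (chromosome 7, 139950100 to 139950532, 5.295-fold, −log10 q of 7.42) was stronger than the strongest peak of 42.92% of tested genes. Genes with no peak within 20 kb are counted in that share as weaker. Its promoter lay inside a wide but weaker peak of 1176 bp (139943164 to 139944339, 4.84-fold, −log10 q of 5.89). A further peak of 4.15-fold with a −log10 q of 3.79 (139945588 to 139945887) lay 515 bp past the gene.

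The neighbours Dppa2 and Dppa4, which lie 15982 bp apart on chromosome 16 and whose proteins work as a pair, did not pass the test. Dppa2 had 35.9 and 34.53 CPM in KO against 38.78 and 49.52 CPM in WT, a log2 fold change of -0.31 (SE 0.29, 95% interval -0.90 to 0.28; edgeR, adjusted p = 0.522). Dppa4 had 211.6 and 218.7 CPM in KO against 213.7 and 183.6 CPM in WT, a log2 fold change of 0.11 (SE 0.17, 95% interval -0.22 to 0.44; edgeR, adjusted p = 0.722). The KO libraries lay below WT for Dppa2, and the groups overlapped for Dppa4. Without WT replicate 1 and WT replicate 2, Dppa2 was at -0.47 and -0.14 and Dppa4 at 0.24 and 0.01, none of them called. The intervals leave room for changes of either sign, and the difference between both genes was not tested.

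Between the pair lay a wide RCOR2 peak (chromosome 16, 48308470 to 48310433, 1964 bp, 9.185-fold, −log10 q of 21.5), 1591 bp from Dppa2 and 14391 bp from Dppa4. It was wider than 99.65% of all peaks. Dppa2 had 2 other peaks, of 4.38-fold with a −log10 q of 4.46 and of 3.69-fold with a −log10 q of 3.23. Next to Dppa4 the strongest of the others (48279270 to 48279940, 7.48-fold, −log10 q of 14.8) lay 4348 bp outside the gene, with one from 48280939 to 48281399 at 5.51-fold (−log10 q of 8.62) and a weak one inside the gene (48283715 to 48283879, 4.20-fold, −log10 q of 4.20). The genes of two-cell-like cells that DPPA2 and DPPA4 are known to activate in mouse ESCs were near 0 in every library. Of 13 such rows 0 had enough counts to be tested, 5 were at 0 throughout, and the highest count was 5, in a WT library.

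Trim28 (KAP1), the scaffold that recruits silencing enzymes to KRAB zinc finger proteins, had 265.8 and 261.6 CPM in KO against 349.5 and 332.2 CPM in WT. Replicates were close to each other, the KO libraries were below both WT libraries, and the difference still missed the threshold. The log2 fold change was -0.37 (SE 0.15, 95% interval -0.68 to -0.06; edgeR, adjusted p = 0.0824). It ran from -0.42 to -0.32 over the alternatives and was called with library size alone (-0.42, edgeR, adjusted p = 0.041); by edgeR, DESeq2 or limma-voom the adjusted p ran from 0.041 to 0.419. Trim28 had 14 RCOR2 peaks, more than 97.11% of tested genes, in a dense stretch of genes. The strongest (chromosome 7, 13014243 to 13015020, 7.39-fold, −log10 q of 17.8) and the next (13016033 to 13016295, 6.67-fold, −log10 q of 11.6) lay 9643 bp and 8019 bp before the start, nearer to Zbtb45. Another (13037480 to 13038152, 6.21-fold, −log10 q of 9.85) lay in Ube2m. Inside Trim28 a peak from 13024981 to 13025187 reached 4.84-fold with a −log10 q of 5.89.

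**Figure D3:**
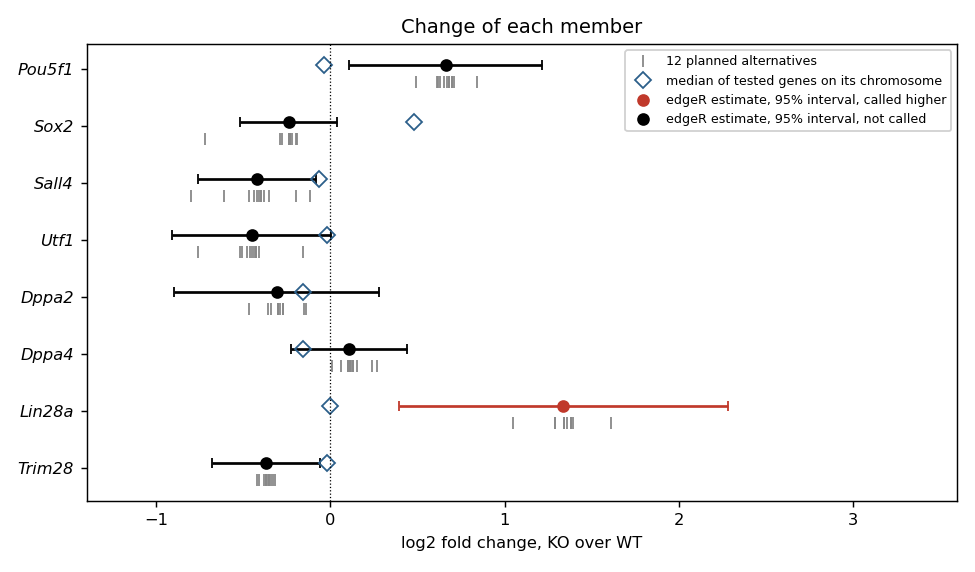
Log2 fold change of each regulator, KO over WT (circles, with the 95% interval of the edgeR fit), the median of the tested genes on its chromosome (diamonds) and the values under 12 alternatives (grey ticks). Lin28a, in red, is called higher at 1.34; Sox2 at -0.24 lies below its chromosome median of 0.48, and the intervals of Sox2, Utf1, Dppa2 and Dppa4 include 0.

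Genes around these regulators were counted in lists by role. Of 68 tested genes in all lists, each counted once, 9 were higher and 12 lower in KO, with a median log2 fold change of -0.12, against 10.4% higher and 9.3% lower among all tested genes. Of the 68, 16 lie on the shifted chromosomes 3, 6, 8 and 11. Paralogs of the 8 regulators stood at 0 higher and 4 lower of 13 tested, with a median of -0.30. All 4 called lower were SOX genes. The other SOX paralogs tested, Sox13 (0.415) and Sox21 (-0.502), were not called. Sox15, a SOX factor made in mouse ESCs, had 20.71 and 19.88 CPM in KO against 77.56 and 62.48 CPM in WT, and fell by 1.79 on the log2 scale (SE 0.29; edgeR, adjusted p = 3e-06). It lies on chromosome 11, and it was called under all 12 alternatives, centring on the chromosome among them, with values from -1.93 to -1.31.

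The SOXC factors, which act in neural and other progenitors, fell as well. Sox11 had 46.6 and 38.19 CPM in KO against 67.03 and 131.8 CPM in WT, and fell by 1.19 (SE 0.25; edgeR, adjusted p = 0.000313). Sox4 had 15.88 and 15.7 CPM in KO against 42.15 and 35.05 CPM in WT, and fell by 1.296 (SE 0.35; edgeR, adjusted p = 0.00505). Sox12 had 5.177 and 1.57 CPM in KO against 11.8 and 22.86 CPM in WT, and fell by 2.22 (SE 0.63; edgeR, adjusted p = 0.00761). Each call was lost when certain single libraries were left out. Sox11 was then at -0.65 without WT replicate 2, Sox4 at -1.13 without WT replicate 1, and Sox12 at -1.68 without KO replicate 2 and -1.71 without WT replicate 2. Without KO replicate 1, Sox12 was at -3.38 and still called. Of the 12 alternatives, Sox11 was called in 11, Sox4 in 10 and Sox12 in 9. DESeq2 called neither Sox4 (adjusted p = 0.0672) nor Sox12 (adjusted p = 0.0693). Trim24 (0.14) and the OCT1 gene Pou2f1 (-0.30), the paralogs with the highest levels, were not called, although Trim24 was called lower once centred on chromosome 6.

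Of 13 targets of OCT4 and SOX2 known from mouse ESCs, 1 was higher (Nanog, at 641.3 and 619.5 CPM in KO against 451 and 451 CPM in WT) and 3 were lower, with a median of -0.23. Nanog lies on chromosome 6, and centred on its median it was at -0.44 in place of 0.48 and was called lower (edgeR, adjusted p = 0.0362). With every gene centred on its chromosome median, 0 targets were higher and 4 lower: Nanog, Fgf4, Dppa5a and Klf2. Klf2 was not called before centring, and the call of Upp1 was lost. Without KO replicate 1 (0.46) or KO replicate 2 (0.52) Nanog was not called. Fgf4, the growth factor under a classic OCT4 and SOX2 enhancer, had 184.7 and 160.1 CPM in KO against 292.1 and 322.3 CPM in WT. It fell by 0.83 (SE 0.16; edgeR, adjusted p = 0.000106) and was called under all 12 alternatives. Upp1, a uridine phosphorylase gene, fell by 0.84 (SE 0.15; edgeR, adjusted p = 3.27e-05) at 237.8 and 258.5 CPM in KO against 453.2 and 432 CPM in WT, but it lies on chromosome 11 and was not called once centred (-0.35). Dppa5a, at 568.8 and 672.8 CPM in KO against 934.1 and 776.4 CPM in WT, fell by 0.47 (SE 0.15; edgeR, adjusted p = 0.0168), a call lost without KO replicate 1 (-0.35), KO replicate 2 (-0.58) or WT replicate 1 (-0.31). Tdgf1 (0.17) and Spp1 (-0.27), the targets with the highest levels, were not called.

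Among 15 tested protein partners of OCT4, 2 were higher and 0 lower, with a median of 0.14. Tfcp2l1, a factor of the naive state, had 403.1 and 446.3 CPM in KO against 179.2 and 289.5 CPM in WT, and rose by 0.87 (SE 0.17; edgeR, adjusted p = 6.95e-05). It was called under all 12 alternatives, at 0.57 without WT replicate 1. Klf5 had 214.7 and 219.2 CPM in KO against 159.8 and 112 CPM in WT, and rose by 0.66 (SE 0.18; edgeR, adjusted p = 0.00492). It missed the threshold without KO replicate 1 (0.67), KO replicate 2 (0.66) or WT replicate 2 (0.44). The remodeller subunits Smarca4 (-0.27) and Smarcc1 (-0.24) were not called.

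In the TRIM28 silencing pathway 3 of 17 tested genes were higher and 2 lower, with a median of 0.15. Morc3, an ATPase that acts in silencing, fell by 1.05 (SE 0.16; edgeR, adjusted p = 1.5e-06), at 153.6 and 172.7 CPM in KO against 308.6 and 368 CPM in WT. Zfp809, the KRAB zinc finger protein that brings TRIM28 to proviral DNA in mouse cells, had 14 and 4 counts in KO against 48 and 36 in WT. This was 4.832 and 2.093 CPM in KO against 20.23 and 27.43 CPM in WT, and it fell by 2.68 (SE 0.56; edgeR, adjusted p = 0.000241). Both were called under all 12 alternatives. The 3 higher genes lie on shifted chromosomes. Setdb1, the histone methyltransferase of the pathway, was at 1.43 (SE 0.38; edgeR, adjusted p = 0.00404), with 26.92 and 53.89 CPM in KO against 18.97 and 9.143 CPM in WT. It was not called when centred on chromosome 3 (0.95), without KO replicate 2 (0.89) or by DESeq2 (adjusted p = 0.0683).

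The HP1 protein gene Cbx3, at 435.6 and 312.3 CPM in KO against 188 and 253.7 CPM in WT, was at 0.77 (SE 0.17; edgeR, adjusted p = 0.000393). The remodeller Smarcad1, at 116.3 and 98.88 CPM in KO against 56.49 and 80.76 CPM in WT, was at 0.68 (SE 0.22; edgeR, adjusted p = 0.0219). Both lie on chromosome 6 and turned to -0.14 and -0.24 when centred on it. Cbx3 was also not called without KO replicate 1 (0.51), nor Smarcad1 without KO replicate 1 (0.54), KO replicate 2 (0.80) or WT replicate 1 (0.43), or by DESeq2 (adjusted p = 0.148). Atrx (0.31) and Cbx1 (-0.285), the members with the highest levels, were not called.

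The LIN28A and let-7 pathway had 3 higher and 3 lower of 16 tested genes, with a median of -0.18. Among genes known as let-7 targets, Igf2bp3, an RNA-binding protein, rose most clearly, with 427.6 and 434.8 CPM in KO against 150.5 and 158.5 CPM in WT and a log2 fold change of 1.48 ± 0.16 (SE; adjusted p = 1.07e-10, edgeR). It lies on chromosome 6, and centred it was at 0.56 and still called (edgeR, adjusted p = 0.0103). Hmga2, an architectural chromatin protein, had 46.25 and 30.34 CPM in KO against 12.22 and 15.24 CPM in WT, and rose by 1.51 (SE 0.37; edgeR, adjusted p = 0.00177), a call lost without KO replicate 1 (1.16). Igf2bp2 had 92.85 and 87.37 CPM in KO against 44.26 and 63.24 CPM in WT, and rose by 0.77 (SE 0.235; edgeR, adjusted p = 0.0134). Its call was lost by DESeq2 (adjusted p = 0.112) and without KO replicate 1 (0.72), KO replicate 2 (0.83) or WT replicate 1 (0.53).

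The 3 lower genes were a pair of let-7 targets and an enzyme of the pathway. The oncogene Mycn had 67.3 and 62.26 CPM in KO against 94.43 and 110.5 CPM in WT, and fell by 0.65 (SE 0.22; edgeR, adjusted p = 0.0259). Igf2bp1 had 1303 and 1155 CPM in KO against 1480 and 1766 CPM in WT, and fell by 0.40 (SE 0.14; edgeR, adjusted p = 0.0369), but lies on chromosome 11 and turned to 0.09 when centred. Tut4, which adds uridine to let-7 precursors bound by LIN28A, had 92.16 and 87.9 CPM in KO against 138.3 and 134.1 CPM in WT, and fell by 0.60 (SE 0.195; edgeR, adjusted p = 0.0226). Each of these calls was lost in 5 to 7 of the 12 alternatives. Mycn was at -0.71, -0.58 and -0.54 without KO replicate 1, KO replicate 2 and WT replicate 2, Igf2bp1 at -0.49, -0.30 and -0.27 without the same libraries, and Tut4 at -0.63, -0.55 and -0.56 without KO replicate 1, KO replicate 2 and WT replicate 1. Trim71 (-0.32) and Dicer1 (-0.16), named by their level, were not called.

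**Figure D4:**
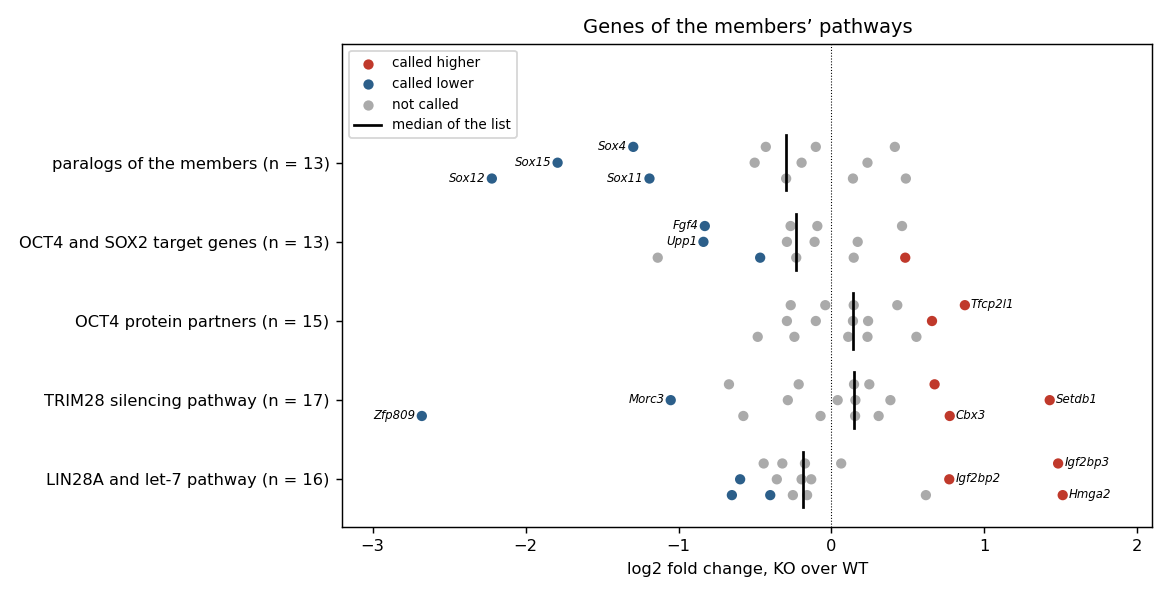
Log2 fold change, KO over WT, of the tested genes in each list (points; red called higher, blue called lower, grey not called; n is the number tested), with the list's median as a black bar. The called paralogs all lie below 0, and the LIN28A and let-7 pathway has called genes on both sides, 3 higher and 3 lower.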

How the data were processed

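Raw read counts per gene symbol were deposited by the authors for 2 KO and 2 WT libraries; for the series, STAR 2.5.2b, featureCounts, Subread, Trimmomatic 0.36 and SAMtools 1.8 are listed in the submitters' processing notes with GRCm38 and mm10, without roles. The sources used here do not give strand use or the handling of shared reads. The peak lists hold a fold (ratio over the control at the summit) and a −log10 q per peak as deposited; the same notes list Bowtie2 2.3.4.1, HOMER, bedtools 2.25.0 and MACS2 2.1.1.20160309. The RCOR2 list was called on merged ChIP libraries, per the peak names in the file. It holds 53367 peaks, of which 53366 lie on chromosomes. The TALE 1 and TALE 2 lists, with 13 and 4 peaks, had 0 peaks within 20 kb of a regulator.

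Counts were filtered with filterByExpr, scaled by TMM and tested with edgeR 4.0.16 in R 4.3.3 (quasi-likelihood, two-sided, Benjamini-Hochberg over 10241 genes, threshold 0.05); DESeq2 1.42.0 and limma 3.58.1 gave alternatives. The fit was checked on simulated counts. CPM are per 1000000 counts after TMM. The SE was derived from the fold change and its F value. Replicates differed beyond sampling noise (chi-square per degree of freedom 4.22 in KO and 4.78 in WT). The 26 rows named by a date hold 0.136% to 0.158% of the counts. Positions (1-based, GRCm38) are those of RefSeq for GRCm38.p6, in which 25028 rows were found; distance runs from a summit to the gene interval, 0 inside.

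The members and lists were chosen with earlier results of these data known. All 8 regulators are named, with Nanog and Rcor2; from each list, every called gene up to 6 per direction by adjusted p, and up to 2 genes not called with the highest mean CPM; for peaks, all where there are 3 or fewer, otherwise the 3 strongest and the nearest. A further result on the counting of Pou5f1 is not reported here.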

Additional observations from a re-analysis of the deposited data

How the results depend on the processing

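Over all tested genes the number called was 2014, with 981 by DESeq2, 1326 with each gene centred on its chromosome median, and 1035 to 1699 with a library left out. Of the 8 regulators 1 was called (Lin28a), with 0 by DESeq2, 2 by limma-voom (Lin28a and Sall4) and 2 with centring (Lin28a higher and Sox2 lower). With library size alone 1 was called, which was Trim28, lower. Which regulator was called changed with the library left out. Lin28a then ran from 1.05 to 1.61 and Sall4 from -0.80 to -0.12. The cause of the lower numbers by DESeq2 was not tested; a library left out leaves fewer samples. Of the genes in the lists 21 were called, and 11 to 18 with a library left out. DESeq2 called 14 list genes. With centring 18 were called, 5 higher and 13 lower, in place of 9 higher and 12 lower. Centring on the chromosome turned the sign of Nanog (-0.44), Cbx3 (-0.14), Smarcad1 (-0.24) and Igf2bp1 (0.09), which lie on chromosomes 6 and 11. RCOR2 peaks within 20 kb of the regulators numbered 68, and 42 with a −log10 q of at least 5; all 8 genes had a peak under each of the 4 peak alternatives. Samples with the same replicate number did not deviate together (correlation -0.053 over 10241 genes), so the numbers were not taken as pairs. With 2 libraries per group both pairs must give the same value, so this is a single check. With the replicate number as a block, 1822 genes, 1 regulator and 20 list genes were called, and Igf2bp1 was lost (edgeR, adjusted p = 0.0936). With 14 to 65 counts of Lin28a per library, depth limits how well its change can be sized.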

Other observations

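With a window of 150 kb, chosen after the peaks were seen, the strongest RCOR2 peak around Sox2 was further off than 20 kb. It lay on chromosome 3 from 34759949 to 34761537, 108469 bp beyond the gene, with an enrichment of 8.499-fold and a −log10 q of 18.4. It was stronger than 95.01% of the list, and Sox2 was the nearest protein-coding gene. For Pou5f1, Sall4 and Utf1 the strongest peak in that window lay nearer to another gene: H2-Q10 (9.185-fold, −log10 q of 21.5), Nfatc2 (11.9-fold, −log10 q of 32.8) and Adgra1 (7.355-fold, −log10 q of 14.4). For Dppa2, Dppa4, Lin28a and Trim28 it was a peak already within 20 kb.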
